A study of Homo sapiens with 16 samples.

Results

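Transcripts pelleted with ribosomes were compared with cytosolic transcripts in H1299, an established human non-small cell lung carcinoma line. The ribosome library is the 1 titled for vector-transfected H1299 and made from ribosome-nascent chain complexes (RNC, ribosomes still holding the mRNA and the growing peptide). It was set against both H1299 cytosol libraries, 1 from cells transfected with the empty Flag vector and 1 from cells transfected with Flag-tagged FLII. A gene entered when its reads summed to 50 or more over the 3 libraries and it had 2 CPM or more (read counts scaled to a common library total) in each cytosol library. The rule kept 11077 of 23709 genes, of which 10144 carry coding (NM) and 933 noncoding (NR) RefSeq accessions.

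The whole study sequenced polyA RNA of H1299 and of HBE, labelled as a lung epithelial line, in 4 fractions (mRNA, RNC, cytosol and nuclear), with 1 library per group. FLII, or flightless I, belongs to the gelsolin family and remodels actin filaments. Both H1299 arms had been transfected transiently with a lipid reagent and kept at passage 15 to 18, so transfection is shared by every H1299 library here. For RNC, cells were pretreated with cycloheximide, which stalls elongating ribosomes, lysed with a detergent and spun through sucrose. How the cytosol was separated is not given in the sources used here, and neither is whether any libraries came from separate cultures.

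A ribosome-nascent chain pellet keeps mRNAs in proportion to how often they carry ribosomes and sediments free mRNA poorly. Messages for secreted and membrane proteins are mostly translated on the endoplasmic reticulum (ER), while messages for cytosolic, nuclear and most mitochondrial proteins are translated on free ribosomes. A detergent lysate releases both pools, whereas a cytosol preparation may or may not hold the ER-bound one.

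The RNC library held 37617959 reads on genes, the vector cytosol library 9259569 and the FLII overexpression cytosol library 6243700. Genes typical of 1 line, at 5 CPM or more in it and 50-fold above the other in vector and control mRNA and nuclear libraries, served as a check of the labels. Of 224 H1299-typical genes, 200 had 1 CPM or more in the RNC library, against 223 in the vector and 219 in the FLII overexpression cytosol. Of 235 HBE-typical genes, 63 did in the RNC library, 36 in the vector cytosol and 110 in the FLII overexpression cytosol. The RNC library titled for FLII-overexpressing H1299 had 232 of those 235 genes at 1 CPM, which goes against its label, and it was not used. Summed over 18 epithelial markers, the RNC library had 75.5 CPM with 3 markers at 0, and the cytosol libraries had 116 and 246 CPM, against 8591 CPM in the HBE control mRNA. VIM, a filament gene typical of H1299, had 147 CPM in RNC, 1768 and 1424 CPM in cytosol and 6299 CPM in vector mRNA. FLII itself had 389 CPM in RNC, 306 CPM in vector cytosol and 915 CPM in FLII overexpression cytosol.

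A few abundant genes filled the RNC library. Its 100 most abundant genes took 49.6% of reads, against 31.8% and 33.1% in the cytosol libraries. Most transcripts had a lower share of reads in RNC than in cytosol, and a share of reads does not tell less RNA of a gene from more RNA of others. The value of a gene is the mean of its log2 CPM ratios, RNC over each cytosol library, and its median was -1.38 (quartiles -2.05 and -0.60), or -1.48 against vector and -1.28 against FLII overexpression cytosol. In all, 272 genes (2.46%) were higher by a log2 ratio of 1 or more against both cytosol libraries, and 6428 genes (58.0%) were lower by as much. That split belongs to the CPM scale. With TMM scaling, which removes the weight of abundant genes, the median gene moved to -0.08 and the counts to 1760 higher and 1660 lower, and with median-of-ratios scaling the counts were 1903 and 1440. Values are therefore also given above or below the median gene of the same comparison. On that scale 1906 genes (17.2%) were higher and 1420 genes (12.8%) were lower by 1 or more against both cytosol libraries. TMM and median-of-ratios scaling shift all ratios to a cytosol library alike, so they cannot change these counts.

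The cytosol libraries come from different arms and are not replicates. Their ratios differed by a median of 0.20, and by 1 or more for 180 genes. With 1 RNC library there is no replicate check of any difference below and no p-value is given. Intervals are 95% exact conditional binomial intervals of a log2 ratio and cover counting error only.

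Short, GC-rich and abundant transcripts stood higher in RNC. The shortest twentieth of genes, 137 to 912 bases, had a median log2 ratio of -0.23 and the longest, 8140 bases and over, -1.64. Genes of 64.96% GC or more had a median of -0.26. The median was lowest, at -1.84, between 44.8% and 46.1% GC, and was -1.48 in the twentieth with the least GC. The twentieth most abundant in cytosol, at 302 CPM or more, had a median of -0.32, against -1.32 in the least abundant one. Across genes, Spearman's rho of the ratio was 0.40 with GC content (10943 genes), -0.22 with length and 0.20 with cytosol level (11077 genes each). These are descriptions across genes, which are not independent replicates. The length trend lay among GC-rich genes: over 5 equal classes of GC content, rho with length was -0.004 and 0.005 in the lowest 2 and -0.34 in the highest. Over 5 equal classes of length, GC content kept a positive rho, between 0.15 in the longest and 0.50.

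The trends with length and GC content ran the other way in HBE. The RNC library of HBE carrying the control labelled NC, set against its cytosol library, shares no library with H1299 and gave a value for 9204 of the same genes. There rho was 0.26 with length and -0.48 with GC content, and the longest twentieth had a median of 1.19. That RNC library also held RNA from outside its line: VIM had 435 CPM in it and 3.04 CPM in HBE control cytosol, and 112 of the 224 H1299-typical genes reached 1 CPM. Restricting HBE to 8332 genes whose mRNA levels lay within 4-fold between the lines gave 0.27 and -0.50. This takes out only genes that differ between the lines. The HBE control RNC library also held RNA that was low in the mRNA of both, which the restriction cannot address. The gene ALDH1A1, for one, had 990 CPM there, 0 CPM in H1299 vector mRNA and 1.09 CPM in HBE control mRNA. The raw ratios of both lines had a rho of 0.03 (9204 genes). After the median of the gene's GC twentieth was taken off in each line, rho was 0.33 (9124 genes), and 0.34 in the genes of like level. The part of library preparation or of sequence content in these trends was not tested.

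**Figure D1:**
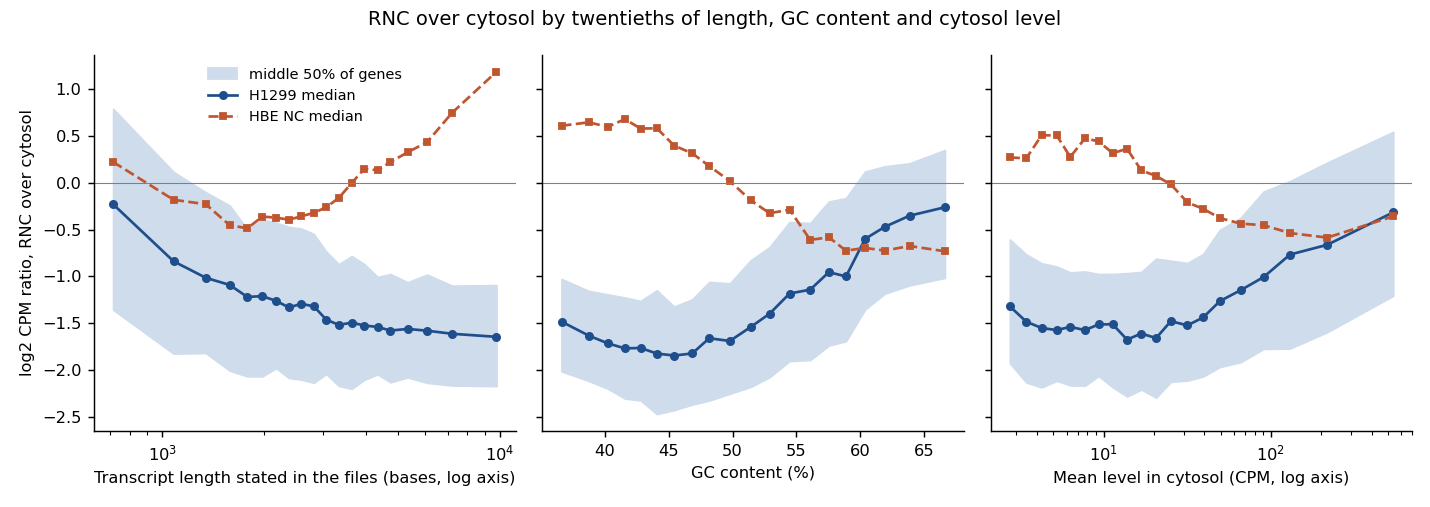
Median log2 CPM ratio of RNC over cytosol in twentieths of genes by stated transcript length (left, bases), GC content (middle, %) and mean cytosol level (right, CPM), each placed at the middle of its range. Blue points are H1299 with the middle 50% of genes shaded, and orange squares are HBE control: H1299 runs from -0.23 at the shortest to -1.64 at the longest transcripts, and HBE ends at 1.19.

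Genes for cytosolic ribosomal proteins, the structural proteins of the ribosome itself, took 35.3% of RNC reads, against 17.9% and 18.95% of cytosol reads. Of 90 such symbols, paralogs such as RPL22L1 and RPL7L1 included, 86 were kept. Of these, 18 were higher and 17 lower in RNC, against 2.46% and 58.0% of all genes. From the median gene, 52 stood 1 or more above and 3 below, against 17.2% and 12.8% of all genes. The list's median log2 ratio was 0.11, which is 1.49 above the median gene and 1.51 above genes of like GC content. It was 0.59 above genes of like length and 0.52 above genes of like cytosol level. Against vector mRNA the list stood 3.17 above the median gene, and in HBE 0.89.

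The ribosomal protein genes were far from uniform. Most of them start with a terminal oligopyrimidine (TOP) motif, a C at the first base followed by a run of C and T that couples their translation to growth signals. The bases around the annotated start are therefore shown for members at each end that carry a run of C and T near it. Among those shown, the marked run opens at the first base itself in RPLP1 and RPL38. It opens before the first base in RPL13A, FAU, RPL14, RPL24 and RPS25, whose first base is also a C followed by C and T. In RPS28 the first base is an A and the run opens at base 2. RefSeq promoters (build GRCh38.p14) gave a start for 68 of the 86. The window printed is 10 bases before the annotated start and 20 bases from it. Capitals mark the longest run of C and T that opens with a C between 3 bases before and 5 bases after the start and has 5 or more letters, read on the strand of the gene only. The first 4 are the highest in RNC and the last 4 the lowest among the genes with a run that are reported here.
RPS28 (chr19:8321486-8321515, + strand): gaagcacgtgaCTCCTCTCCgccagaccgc
RPL13A (chr19:49487598-49487627, + strand): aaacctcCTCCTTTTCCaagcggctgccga
RPLP1 (chr15:69452808-69452837, + strand): ggcgcgagagCCCCTTTCCTCagctgccgc
FAU (chr11:65122115-65122144, - strand): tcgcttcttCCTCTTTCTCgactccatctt
RPL14 (chr3:40457329-40457358, + strand): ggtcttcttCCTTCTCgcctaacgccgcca
RPL38 (chr17:74203668-74203697, + strand): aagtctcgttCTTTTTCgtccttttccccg
RPL24 (chr3:101686699-101686728, - strand): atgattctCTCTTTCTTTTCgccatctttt
RPS25 (chr11:119018324-119018353, - strand): gcagcgcttCCTTTTTgtccgacatcttga

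Runs of this kind were found at both ends of the list. They stood at or near the start of 13 of 15 higher and 9 of 15 lower ribosomal protein genes with a promoter. The same held for 50 of 68 (73.5%) in the list, 1442 of 8974 kept genes (16.1%) and 3978 of all 27305 promoters (14.6%). Ribosomal protein genes with a run had a median log2 ratio of 0.32 and those without -0.84. Against genes of like GC content the gap was smaller, with medians of 1.50 and 1.00 above. Among all other kept genes the medians with and without a run were -1.38 and -1.39. Within other lists the genes with a run lay lower. The medians with and without were -1.83 and -1.12 for initiation factors (11 of 31 with a run). They were -1.57 and -0.18 for elongation factors and other TOP-type genes (10 of 13). For snoRNA hosts (4 of 12) they were -0.61 and -0.06, and for mitochondrial ribosomal proteins (8 of 68) -1.09 and -0.89. Against genes of like GC content the last list turned, to 0.65 and 0.49. A run is a match of letters and not a measured start.

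RPS28, a small subunit protein, had 4713 CPM in RNC, 1225 CPM in vector cytosol and 1376 CPM in FLII overexpression cytosol. Its log2 ratios were 1.94 (interval 1.92 to 1.97) and 1.78 (interval 1.75 to 1.81). RPLP1, an acidic stalk protein of the large subunit, had 13954 CPM in RNC, 3774 and 4117 CPM in cytosol. RPL13A (5038 CPM against 1369 and 1415) and FAU, which encodes RPS30 fused to a ubiquitin-like protein (4299 CPM against 1186 and 1251), were as far above the cytosol libraries. At the other end stood RPL4, a large subunit core protein, with 297 CPM in RNC and 1931 and 1994 CPM in cytosol, so that its log2 ratios were -2.70 (interval -2.74 to -2.67) and -2.75 (interval -2.78 to -2.71). RPL14 had 65.7 CPM against 378 and 439, and RPL38, RPL24 and RPS25 had log2 ratios between -1.97 and -2.35. Each of these was on 1 side of both cytosol libraries.

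Small subunit genes stood higher than large subunit genes. The 34 small subunit genes had 13 higher and 4 lower and a median 1.72 above the median gene. The 52 large subunit genes had 5 higher and 13 lower and a median of 1.17 above it. Over all genes, 2.46% were higher and 58.0% lower. In HBE both subunits lay in the same order, at 1.26 and 0.68. The order did not hold among genes under 45% GC, where 7 small subunit genes were 1.00 and 13 large subunit genes 1.25 above the median gene, while at 55% GC and over the values were 2.82 (9 genes) and 1.99 (10 genes).

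**Figure D2:**
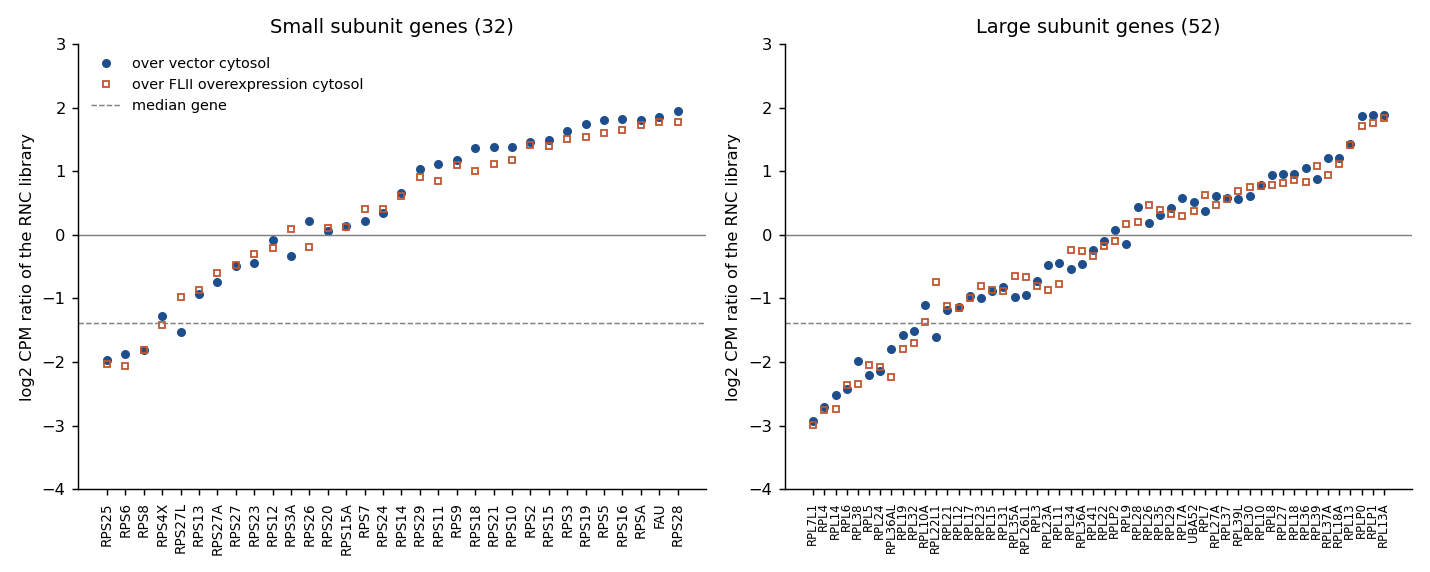
Log2 CPM ratio of the RNC library over vector cytosol (blue circles) and FLII overexpression cytosol (orange squares) for 32 of 34 small subunit and all 52 large subunit ribosomal protein genes, each panel ordered by the mean. The dashed line is the median gene at -1.38: values run from -2.99 for RPL7L1 over FLII overexpression cytosol to 1.94 for RPS28 over vector cytosol.

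The rest of the translation apparatus did not share this position in H1299. Translation initiation factors (38 genes) had a median 0.06 above the median gene, with 0 higher and 23 lower, a share near the 58.0% of all genes that were lower. The list stood at -0.15 from genes of like length, -0.47 from genes of like cytosol level and 0.32 from genes of like GC content. EIF6, which holds the subunits apart, had 2423 CPM in RNC and 1190 and 1265 CPM in cytosol, and stood 5.13-fold above the median gene. EIF5B, which joins the subunits, had 5.72 CPM against 78.1 and 71.8. Elongation factors and other TOP-type genes (18 genes) were 0.25 below the median gene, with 1 higher (EEF1G, 7913 CPM against 3125 and 3483) and 11 lower. That list turned to 0.17 above after allowance for GC content (0.18 above in RNC over mRNA). It stayed below at -0.37 from genes of like length and -1.02 from genes of like cytosol level. EEF1A1, the tRNA-delivery factor, had 5221 CPM against 8740 and 9611 and was neither. Aminoacyl-tRNA synthetases, which charge tRNAs, were 0.89 below the median gene, with 17 of 20 lower. DARS, the aspartate enzyme, had 7.15 CPM against 120 and 80.2 CPM, whereas QARS, the glutamine enzyme, had 251.5 CPM against 108 and 132. In HBE the initiation factors, the elongation list and the synthetases were 0.34, 0.66 and 0.60 above the median gene. They were 0.01, 0.48 and 0.19 above genes of like GC content there. The elongation list and the synthetases thus lay on the opposite side of the median gene in HBE.

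Genes for the oxidative phosphorylation complexes that are encoded in the nucleus were also above the median gene. Of 77, 15 were higher and 23 lower, against 2.46% and 58.0% of all genes. From the median gene, 39 were 1 or more above and 5 below, against 17.2% and 12.8% of all genes. The list's median was 1.07 above the median gene. The list was 1.03 above genes of like GC content, 0.46 above genes of like length and 0.60 above the median in HBE. NDUFA11, a complex I subunit and the highest of the list, had 3611 CPM in RNC against 762 and 798 CPM. 3 other mitochondrial genes, which the list does not hold, were among the highest coding genes of all. COX14 and COA3 assemble cytochrome c oxidase, and ROMO1 is a small inner membrane protein. COX14 had 604 CPM in RNC against 109 and 114 CPM, with log2 ratios of 2.47 (interval 2.38 to 2.57) and 2.40 (interval 2.29 to 2.51). ROMO1 had 2240 CPM against 432 and 536, and COA3 264 CPM against 54.5 and 53.2. ATP5L, an ATP synthase subunit listed in the files under a noncoding accession, had 1633 CPM against 446 and 423. The list itself also reached low values: ATP5H, another ATP synthase subunit, had 18.1 CPM against 141 and 134, and ATP5C1, the gamma subunit, 6.46 CPM against 43.7 and 33.1.

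Other mitochondrial lists lay lower. Mitochondrial ribosomal proteins (76 genes) were 0.45 above the median gene, with 7 higher and 32 lower, against 2.46% and 58.0% of all genes. They ran from MRPS12 with 2496 CPM against 694 and 728 to MRPS9 with 1.36 CPM against 16.1 and 15.7. Mitochondrial carriers and outer membrane genes (26) were 0.47 above it, with 2 higher, TIMM10 and TIMM13, which are small chaperones of the space between the membranes. Compared with genes of like length, these lists were 0.05 and 0.19 above. Against genes of like cytosol level they stood at 0.24 and -0.11, so the carrier list turned below.

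Transcripts whose proteins enter the secretory pathway were above the median gene against cytosol. The list of extracellular matrix and secreted proteins (44 genes) was 0.79 above it, lysosomal proteins (38) 0.68, solute carriers and ion pumps (39) 0.67, and integrins, cadherins and receptors (57) 0.53. On the CPM scale 1, 2, 1 and 1 of their genes were higher and 13, 10, 9 and 16 lower. Relative to the median gene, 16, 12, 12 and 14 stood 1 or more above it and 2, 0, 0 and 0 below it. Over all genes, 2.46% were higher and 58.0% lower on the CPM scale, and 17.2% stood 1 or more above the median gene and 12.8% below it. In HBE the same lists were 0.82, 0.49, 0.69 and 1.00 above the median, and 0.83, 0.65, 0.76 and 1.00 with genes of like level between the lines. After allowance for GC content the H1299 values were 0.12, 0.78, 0.62 and 0.29.

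IGFBP3, a secreted binding protein of insulin-like growth factors, had 8.51 CPM in RNC, 2.05 CPM in vector cytosol and 2.40 CPM in FLII overexpression cytosol. Its log2 ratios were 2.02 (interval 1.38 to 2.803) and 1.78 (interval 1.08 to 2.68). IGF1R, the receptor of those factors, had 9.36 CPM against 3.46 and 2.72. LAMB1, a laminin chain of basement membranes, had 10.3 CPM against 2.27 and 5.93, so that its ratios of 2.16 and 0.79 differed by more than 1 between the cytosol libraries. NAGLU and CLN3, a lysosomal enzyme and a lysosomal membrane protein, were higher, with 72.9 CPM against 29.3 and 33.3 and 189 CPM against 86.4 and 93.7. The lowest of the secreted list was CXCL1, a chemokine, with 0.85 CPM in RNC against 35.4 and 32.5 in cytosol, and it had 1.35 CPM in vector mRNA.

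These lists stood differently in comparisons with other fractions. In vector nuclear RNA over vector cytosol, the 4 lists stood 1.59, 1.34, 1.05 and 1.10 above the median gene. In RNC over vector mRNA they stood at -0.31, 0.51, -0.14 and -0.38, so 3 of the 4 were below the median gene there. LAMB1, for one, had 114 CPM in vector mRNA and 46.2 CPM in vector nuclear RNA. ER chaperones and translocation factors, which receive these proteins, were 0.10 above the median gene in RNC over cytosol, 1.29 in nuclear over cytosol and -0.26 in RNC over mRNA. HSPA5, the main ER chaperone, had 21.5 CPM in RNC, 32.4 and 41.2 CPM in cytosol, 374 CPM in vector mRNA and 386 CPM in nuclear RNA. Whether cytosol preparation had a part in this was not tested.

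A predicted hydrophobic stretch early in the protein, as a signal peptide or first membrane span has, went with a higher ratio in H1299. In proteins translated from the annotated coding sequences, a window of 19 residues with a mean Kyte-Doolittle value of 1.6 or more lay in the first 60 residues for 1310 genes, and their median log2 ratio was -1.03. It was -1.22 for 1885 genes with such a window only later and -1.498 for 7164 genes with none. With a limit of 1.8 the medians were -1.02, -1.11 and -1.48. In HBE the same classes, at the limit of 1.6, lay close together, at 0.07, 0.07 and -0.01 from the median. After allowance for GC content the HBE values were 0.14, 0.15 and -0.04, so early and later-only windows did not differ there. The early-window genes lay above those with none in each band of GC content, by medians of -1.40 against -1.76 under 45% GC and -0.28 against -0.48 at 60% and over. In RNC over mRNA the same bands gave -0.63 against -0.90 above the median gene under 45% GC, -0.64 against -0.78 between 45% and 50%, 0.05 against 0.06 between 50% and 55%, 1.30 against 0.99 between 55% and 60%, and 2.11 against 2.14 at 60% and over.

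**Figure D3:**
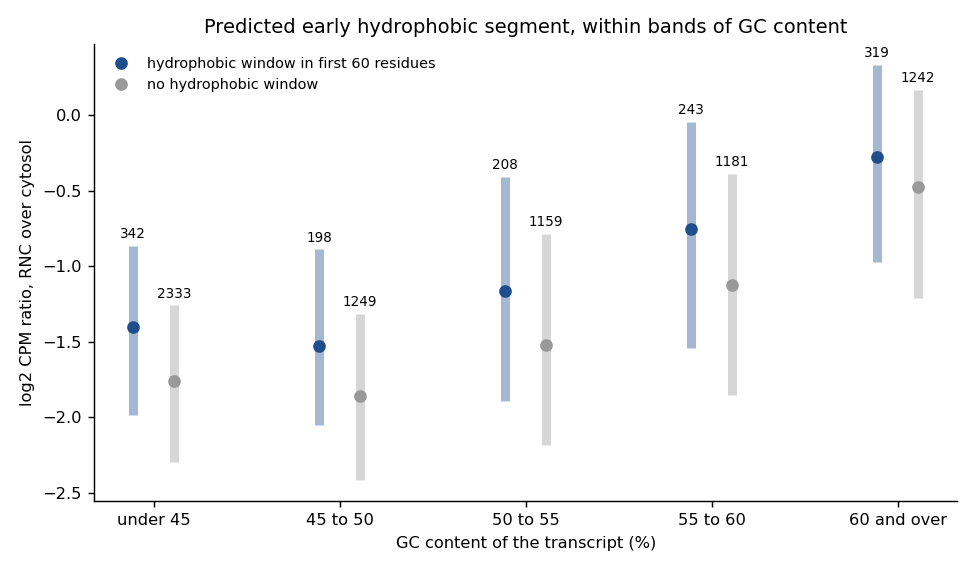
Median log2 CPM ratio of RNC over cytosol (points) with the middle 50% of genes (bars) for genes with a predicted hydrophobic window in the first 60 residues (blue) and with none (grey), in bands of GC content. Numbers above the bars are genes: the blue median lies above the grey one in each band, by the least (-0.28 against -0.48) at 60% GC and over.

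Soluble housekeeping systems lay below the median gene. Of these, cytosolic chaperones were lowest, at -0.996 from it, with 0 higher and 22 of 27 lower, and 11 of them were 1 or more below the median gene and none above. HSP90AB1, the constitutive HSP90, had 129 CPM in RNC against 1088 and 1103 CPM, with log2 ratios of -3.08 (interval -3.13 to -3.03) and -3.10 (interval -3.15 to -3.04). CCT7, a chaperonin subunit, had 382 CPM against 568 and 596 and was neither higher nor lower. Glycolytic enzymes were 0.55 below (13 of 16 lower), with LDHA, lactate dehydrogenase A, at 35.3 CPM against 320 and 271 and TPI1, triosephosphate isomerase, at 1936 CPM against 2068 and 2253. Splicing factors were 0.47 below (52 of 61 lower), nuclear pore and export factors 0.46 (29 of 39), actin cytoskeleton genes 0.45 (36 of 48), cell cycle genes 0.29 (44 of 59), the proteasome 0.29 (22 of 31) and nonsense-mediated decay factors 0.30 (11 of 16). These counts of lower genes stand against 58.0% of all genes. The proteasome turned to 0.10 above after allowance for GC content and stood 0.16 above in RNC over mRNA. It stayed below at -0.59 from genes of like length and -0.53 from genes of like cytosol level. MYL6, a myosin light chain, was the 1 gene of the actin list called higher, with 4037 CPM against 1144 and 1310, and 6 of the 48 stood 1 or more above the median gene. In HBE, 6 of these 8 lists stood above the median gene, by 0.20 to 0.48 for the splicing, actin, cell cycle, proteasome, chaperone and decay lists, while glycolysis was at -0.39 and the nuclear pore list at -0.04.

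**Figure D4:**
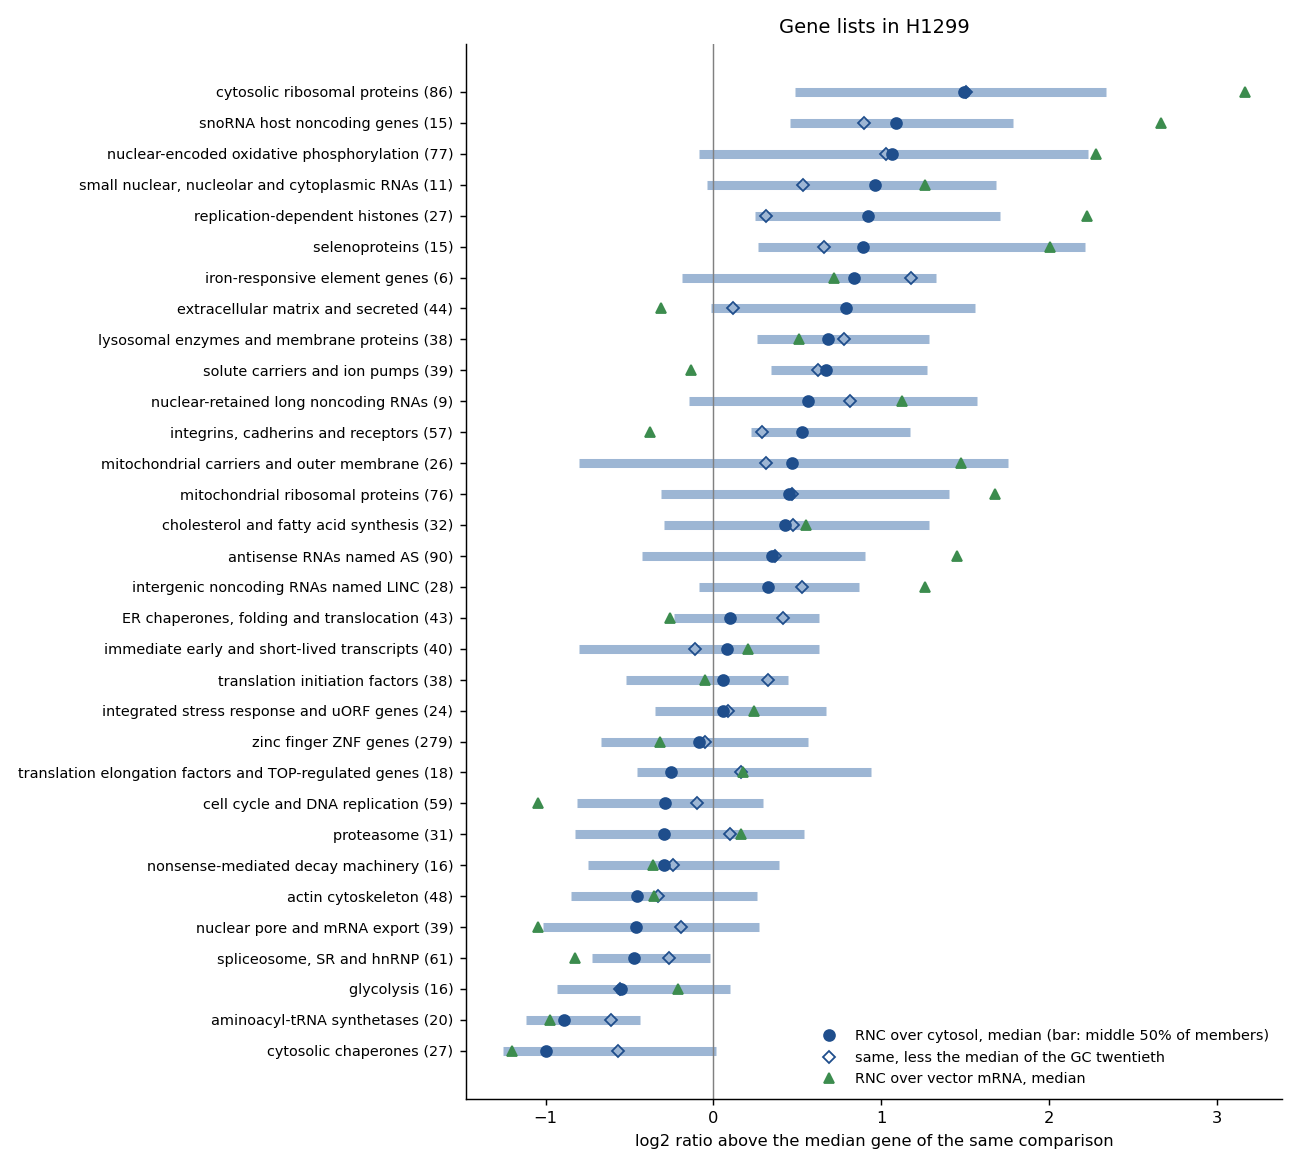
Median log2 ratio of each gene list above the median gene in H1299, for RNC over cytosol (blue points, bars the middle 50% of members), the same after the GC-twentieth median is taken off (open diamonds) and RNC over vector mRNA (green triangles), with the number of genes kept in brackets. Ribosomal proteins stand at 1.49 and cytosolic chaperones at -0.996, and the secreted list moves from 0.79 over cytosol to -0.31 over mRNA.

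Lists defined by elements in the mRNA differed from one another. Of 6 kept genes with iron-responsive elements, FTL, the ferritin light chain, had 6081 CPM in RNC against 3290 and 3372 CPM, which is 4.74-fold above the median gene. FTH1, the heavy chain, had 552 CPM against 545 and 589. The list was 0.84 above the median gene and 1.33 in HBE. Selenoproteins, whose UGA codons are decoded as selenocysteine, were 0.89 above it, with 3 of 15 higher against 2.46% of all genes. SELM (402 CPM against 150 and 157) and SEPW1 (271 CPM against 128 and 132) were among the higher ones. Replication-dependent histone genes, which end in a stem-loop and mostly lack a polyA tail, were 0.92 above it and 0.31 above genes of like GC content (27 of 71 kept). They stood at -0.22 from genes of like length, so the direction turned, and at -0.11 from the median in HBE. HIST1H3G had 31.1 CPM against 5.62 and 3.84. Genes with upstream reading frames or in the integrated stress response (24) were 0.06 above: TRIB3, a pseudokinase, had 125 CPM against 57.3 and 62.0, and ATF4, its transcriptional activator, 104 CPM against 487 and 446. Immediate early and other short-lived transcripts (40) were 0.08 above, with 0 higher and 24 lower, near the 58.0% of all genes. MYC had 9.41 CPM against 89.9 and 81.8, and HES1, a Notch target, 1.22 CPM against 19.6 and 20.3. Zinc finger genes of the ZNF family (279) were 0.08 below, and genes of cholesterol and fatty acid synthesis (32) 0.43 above.

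Noncoding accessions stood slightly above coding ones. Genes with NR accessions had a median 0.21 above those with NM accessions (36 of 933 and 236 of 10144 higher), but 374 of the 933 are protein coding in RefSeq. The 350 genes of the lncRNA biotype were 0.38 above the median gene, with 16 higher and 153 lower, against 2.46% and 58.0% of all genes. From the median gene, 81 were 1 or more above and 40 below, against 17.2% and 12.8% of all genes, so the share below was near that of all genes. These lncRNAs are short, with a median of 2019 bases against 2934 for all genes, and were 0.11 above genes of like length. In HBE they were 0.42 below the median. Antisense RNAs (90 named AS) were 0.35 and intergenic RNAs (28 named LINC) 0.33 above the median gene. Against genes of like length they were 0.11 and 0.13 above, and in HBE they stood at -0.64 and -0.44 from the median. Counting of strand is not stated, so reads of an antisense gene and of its partner cannot be told apart.

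Hosts of small nucleolar RNAs, spliced noncoding transcripts whose introns carry the snoRNAs, were 1.09 above the median gene (15 genes). Of these, 2 were higher and 3 lower, against 2.46% and 58.0% of all genes. The list was 0.09 above genes of like length and 2.66 above the median in RNC over mRNA. SNHG8 had 210 CPM in RNC against 95.6 and 86.3 CPM, and EPB41L4A-AS1 94.9 CPM against 35.6 and 33.6. GAS5, a TOP-type host whose product is degraded when translated, had 223 CPM against 232 and 261, which is 2.36-fold above the median gene. In HBE the list was 0.25 above the median and 0.008 above genes of like GC content, while the log2 ratios of GAS5 and SNHG8 were 2.00 and 1.70.

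Long noncoding RNAs known to stay in the nucleus were present in RNC. NEAT1, the scaffold of paraspeckles, had 24.8 CPM in RNC, 9.504 and 12.01 CPM in cytosol, 81.8 CPM in vector mRNA and 70.5 CPM in vector nuclear RNA. Its log2 ratios were 1.37 (interval 1.07 to 1.71) and 1.04 (interval 0.70 to 1.40). MALAT1, of nuclear speckles, had 21.2 CPM in RNC against 33.9 and 35.6 CPM in cytosol and 434 CPM in nuclear RNA. KCNQ1OT1 and MEG3 were lower, with 8.61 CPM against 37.5 and 27.5 and 1.30 CPM against 9.18 and 5.61. The 9 kept genes of this list were 0.56 above the median gene and 1.62 in HBE. Whether nuclear RNA in the lysate had a part in these levels was not tested.

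Among the highest lncRNAs, FAM27B had 33.5 CPM in RNC against 6.59 and 7.37 CPM, and IQCH-AS1, an antisense RNA, 87.2 CPM against 19.4 and 20.3 CPM. FTX, from the X-inactivation region, had 10.8 CPM against 2.59 and 3.68. Ribosomal RNA, which polyA selection should remove, was listed at 172 CPM in RNC against 13.9 and 48.1 CPM for RNA5-8S5. RMRP, the RNA of a mitochondrial and nucleolar RNase, had 20.1 CPM against 10.9 and 18.7. Pseudogenes (220) were 0.21 below the median gene. Against 12.8% and 17.2% of all genes, 66 of these pseudogenes were 1 or more below it and 35 above. Their reads can come from the parent gene, so their ratios are uncertain.

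The highest single ratios belonged to short or GC-rich coding genes, with exceptions. SMPD4, a sphingomyelinase listed under a noncoding accession, had 1300 CPM in RNC against 186 and 193 CPM, 17.8-fold above the median gene, with 552 CPM in vector mRNA and a log2 ratio of 2.00 in HBE. C9orf123 had 530 CPM against 98.7 and 102, RABAC1, a Rab-binding membrane protein, 3737 CPM against 849 and 918, and DDT, a tautomerase, 131 CPM against 24.3 and 23.7. AKR1B10, an aldo-keto reductase, had 55.6 CPM against 3.56 and 2.72 CPM and was at 0 reads in vector mRNA. It had 642 CPM in the HBE control RNC library and 1.18 CPM in HBE control cytosol. ALDH1A1, which the rule left out, had 73.6 CPM in the H1299 RNC library, 0.11 and 0.16 CPM in H1299 cytosol, 990 CPM in HBE control RNC and 0.17 CPM in HBE control cytosol. AKR1B10 thus moved with RNA found in RNC libraries of both lines, and its ratio is given for these libraries only.

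The lowest ratios divided the libraries in a different way. Of the kept genes, 32 had no read in RNC. None of these 32 was at 0 in a cytosol or nuclear library, while 26 were at 0 in vector mRNA and 31 were under 0.5 CPM in both mRNA libraries. Their median was 91 reads in vector cytosol and 68.5 in vector nuclear RNA. ATP1A4, a sperm sodium pump subunit, had 241 and 131 reads in the cytosol libraries, 0 in RNC and 0 in both mRNA libraries. With the 0 in RNC counted as 3 reads, it was 326-fold and 263-fold lower in RNC than in the 2 cytosol libraries. The upper ends of its log2 intervals, which include the counting error of the cytosol reads, were -8.04 and -7.72. LRRC10, DHRS9, LMAN1L and DBH also had 0 reads in RNC and in both mRNA libraries. RPL19P12, a pseudogene of a ribosomal protein, had 0 reads in RNC and 2 and 1 reads in the mRNA libraries, against 299 and 231 in cytosol. Of 95 genes at a log2 ratio of -5 or below against both cytosol libraries, 85 were not at 2 CPM in both mRNA libraries. GAGE12G went the other way, with 120 CPM in RNC, 77.6 CPM in vector mRNA and 0 in all H1299 cytosol and nuclear libraries, and it has near-identical copies. The mRNA and RNC libraries thus stood together against cytosol and nuclear libraries for such genes, and the cause was not tested.

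Some genes with reads in mRNA were also far lower in RNC. PTBP1, a splicing repressor, had 87.7 CPM in RNC against 7567 and 3895 CPM, with log2 ratios of -6.43 (interval -6.48 to -6.38) and -5.47 (interval -5.53 to -5.42). It too had more reads in nuclear RNA (6768 CPM) than in vector mRNA (865 CPM). ZNF665 had 0.37 CPM against 52.4 and 42.9, TRMT5, a tRNA methyltransferase, 0.96 CPM against 68.1 and 49.8, and LIMK2, a kinase of actin regulators, 3.62 CPM against 121 and 132. CDKN2B, a cell cycle inhibitor, had 1.54 CPM against 49.8 and 49.3 and 34.5 CPM in vector mRNA. Restricting the comparison to the 10615 genes at 2 CPM or more in both H1299 mRNA libraries left the median at -1.37, with 1840 genes (17.3%) 1 or more above and 1231 (11.6%) below the median of all 11077 kept genes. Measured from the median of the 10615 genes themselves, the counts were 1818 and 1260.

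**Figure D5:**
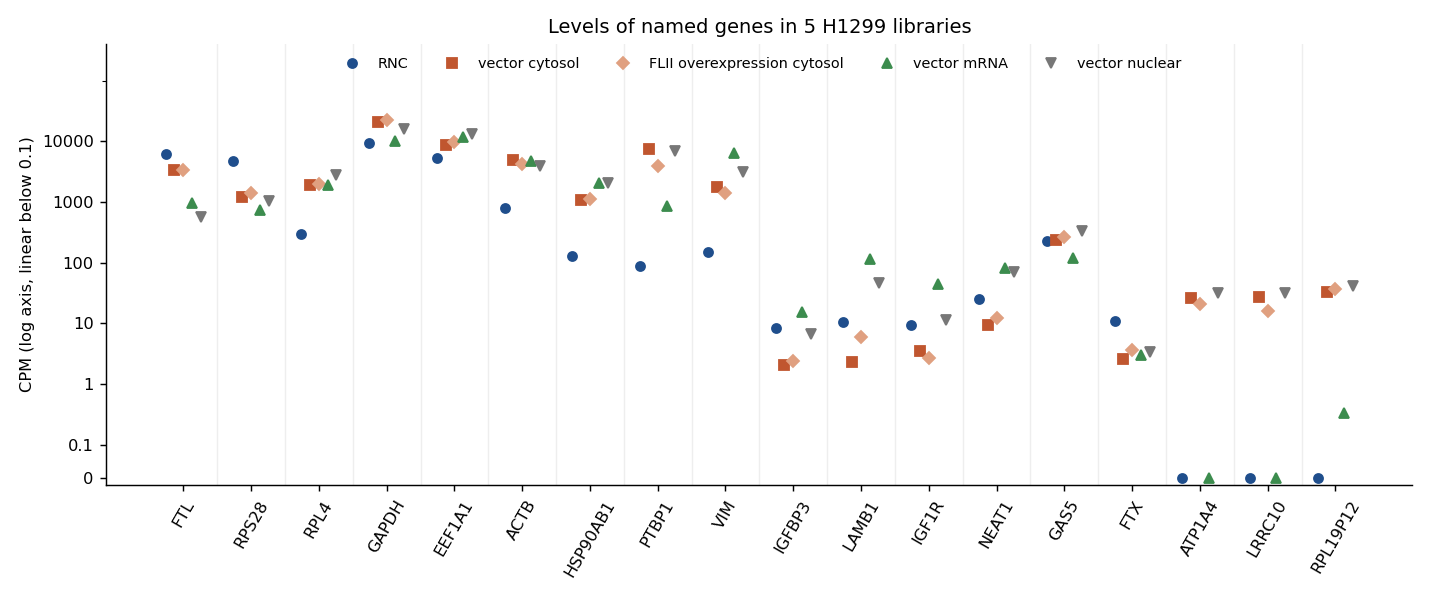
CPM of 18 named genes in the RNC (circles), vector cytosol (squares), FLII overexpression cytosol (diamonds), vector mRNA (upward triangles) and vector nuclear (downward triangles) libraries of H1299, on a log axis that is linear below 0.1. FTL, RPS28 and FTX each have more CPM in RNC than in the other libraries drawn. ATP1A4, LRRC10 and RPL19P12 are at 0 in RNC and at or near 0 in mRNA but between 16.2 and 40.5 CPM in cytosol and nuclear RNA.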

How the data were processed

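Per the file headers, every deposited file lists the same RefSeq genes with their length, read count and RPKM. The authors' counts are whole numbers, and the deposited RPKM equals the count scaled to the stated length and library total. The submitters' processing notes name GRCh37 and hg19. No aligner or counter is given in the sources used here. CPM were computed over all genes of a library, and 0.5 reads were added before the log2 ratio. Libraries were grouped by title.

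The members, gene lists and rules were chosen with earlier results of these data known. The 34 lists were described by counts and medians only. Genes named are the 12 NM and 8 NR genes furthest out in each direction (200 or more reads, a log2 ratio of 1 or more against both cytosol libraries), the same among genes also in mRNA, and 2 members at each end of a list, or all members of lists of 12 or fewer. Genes named outside this rule (ribosomal protein genes shown at their start, ALDH1A1, GAGE12G, HSPA5, EEF1A1, ATF4, PTBP1, GAS5 and MALAT1 among them) were chosen after their values were seen. Symbols that look like dates (18) were not named, and a few other genes are not reported here.

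GC content, untranslated and coding lengths and translated proteins came from GENCODE 29, for 98.8% of genes with a GC value, and biotypes and start sites from RefSeq. Hydrophobic windows were found in the translated coding sequences. TMM factors are from edgeR 4.0.16 and size factors from DESeq2 1.42.0. The call rule, intervals and twentieth medians were tested on simulated data.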

Additional observations from a re-analysis of the deposited data

Results flagged for a closer look

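Of the RNC reads, 136907 (0.364%) fell on genes outside the rule. Among these genes, 20 had 100 or more RNC reads and 1 or no read in both cytosol libraries. GAGE12G had 4525 reads, ALDH1A1 2768, CPLX2 1766 and CA12 590, each at 1 read or fewer in either H1299 cytosol library. ALDH1A1 had 33919, CPLX2 17508 and CA12 6631 reads in the HBE control RNC library and 0 to 2 reads in H1299 vector mRNA. GAGE12G, of a family of near-identical copies, had 461 reads in H1299 vector mRNA and 8 in HBE control RNC. These genes were noticed because the signal lies outside the genes compared.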

How the results depend on the processing

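No paired analysis was possible because each group has 1 library. Counts higher and lower on the CPM scale turned on scaling: 1760 and 1660 with TMM (median gene -0.084), 1903 and 1440 with median-of-ratios (median gene -0.0012), and 465 higher without ribosomal protein reads (median gene -1.04). With no minimum CPM 462 were higher. Less the median of the twentieth of length, cytosol level and GC they were 1671 and 1546, 1655 and 1493, and 1380 and 1331. The gap between shortest and longest twentieths, 1.42, was 1.07 with RPKM, 0.95 by level and 0.96 by GC. The NR over NM gap, 0.21, was 0.29 with no minimum CPM, 0.058 by length and 0.12 to 0.19 without 1 cytosol library. The hydrophobic gap, 0.47, was 0.30 by GC. Leaving out 1 cytosol library gave 302 to 330 higher and 6701 to 7189 lower. Among the 223 named genes and 34 lists, none called 1 or more from the median gene changed sign under the 16 alternatives, 1 of them (2 CPM also in both mRNA libraries) and the RefSeq biotype chosen after seeing the data. Of 34 lists, 22 lay above the median gene, and 24 of the 34 kept their side under every alternative run. Alternatives that change only the library scaling cannot move a value measured from the median gene, so they are no check of either statement. Depth limits ratios of genes near 2 CPM, as the intervals of IGFBP3 and LAMB1 show.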
